A study of Rattus norvegicus with 12 samples.

Results

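The 34 genes described here encode the constitutive 26S proteasome of neonatal rat ventricular myocytes (NRVMs), and were taken by gene symbol from the 18483 genes of the expression tables. They are Psma1 to Psma7 and Psmb1 to Psmb7 of the core particle, Psmc1 to Psmc6 and 11 Psmd genes of the regulatory particle, and Psmd5, Psmd9 and Psmd10, which encode chaperones of regulatory particle assembly rather than lasting subunits. The subunits that immune signals induce in place of the constitutive catalytic ones are not among them. All 34 genes passed the filter on low counts that left 13967 genes for testing.

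RNA was sequenced from NRVMs of Sprague-Dawley rats in 4 groups of 3 biological replicates. siNeg NRVMs received a control siRNA and no further agent. siNeg PE NRVMs received the control siRNA and phenylephrine (PE), an alpha-adrenergic agonist that makes cardiomyocytes hypertrophic. siSlc39a2 NRVMs received an siRNA against Slc39a2, a plasma membrane zinc importer, and siSlc39a2 PE NRVMs received that siRNA and PE. The labels place PE 12 h after transfection and give 36 h of treatment, whereas the culture methods of the study give a longer exposure. All groups were transfected and cultured in a medium with insulin, transferrin and selenium. The knockdown rests on an siRNA of a single sequence, so an effect of that sequence on other transcripts cannot be told apart from the loss of Slc39a2.

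The proteasome degrades proteins that carry ubiquitin chains. Its core particle is a stack of rings, in which outer alpha rings form a gate and inner beta rings hold the proteolytic sites of Psmb5, Psmb6 and Psmb7. The regulatory particle caps the core. Its base holds a ring of ATPases, Psmc1 to Psmc6, which unfold substrates and open the gate, and its lid holds the deubiquitinase Psmd14, which removes the ubiquitin chain before a substrate enters. Subunits are assembled in fixed proportion, and their genes are known to be induced together by the transcription factor NFE2L1 when proteasome activity falls short. In the heart the proteasome clears damaged sarcomere proteins, and its load is known to change when cardiomyocytes grow.

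Sequencing gave 24065539 to 28603854 expected counts a sample. The least covered member, Psmd10, had at least 38 counts in each sample and the next, Psmd14, at least 354. For Slc39a2 itself, siNeg samples held 50, 50 and 59 counts and siSlc39a2 samples 21, 11 and 2, and its level fell by 2.35 on the log2 scale (edgeR adjusted p = 0.00098). Cardiomyocyte markers dominated every sample, with a summed level of 20663 ± 692 FPKM (the authors' level per transcript length and library size; SD, n = 3) in siNeg, 20915 ± 251 in siSlc39a2, 27165 ± 835 in siNeg PE and 31481 ± 1399 in siSlc39a2 PE (SD, n = 3 each). The cardiomyocyte sum thus stood higher in every PE sample than in any sample without PE. None of the 8 listed cardiomyocyte genes was at 0. Without PE, the 8 fibroblast markers summed to 3088 ± 496 FPKM in siNeg and 1153 ± 58.6 in siSlc39a2, and with PE to 2137 ± 290 and 847 ± 169 (SD, n = 3 each). They lay between 2520 and 3436 in the siNeg samples and between 1114 and 1220 in the siSlc39a2 samples. The 6 smooth muscle markers summed to 1668 ± 42.2 FPKM in siNeg and 743 ± 8.54 in siSlc39a2, and with PE to 1135 ± 149 and 1099 ± 48.6 (SD, n = 3 each), which overlapped. Macrophage markers summed to 14.9 ± 1.44 FPKM in siNeg, 12 ± 0.22 in siSlc39a2, 9.38 ± 0.325 in siNeg PE and 7.72 ± 0.514 in siSlc39a2 PE, and endothelial markers to between 4.18 and 4.32 on average in every group. The fibroblast sum was thus lower after knockdown with and without PE, the smooth muscle sum without PE, and the cardiomyocyte sum was higher with PE. Single genes went the other way. At an edgeR adjusted p below 0.05, PE raised 2 and lowered 3 of the 8 cardiomyocyte markers with either siRNA. Their log2 fold changes ran from -0.95 (Myh6) to 0.83 (Actc1) with siNeg, and from -1.01 to 1.39 for the same genes with siSlc39a2. Of all genes tested, PE raised 24% and lowered 25.7% with siNeg, and raised 30.7% and lowered 29.3% with siSlc39a2. The knockdown lowered 6 and raised 1 of the 8 fibroblast markers, both with and without PE. Of all genes tested, it lowered 26.4% and raised 22.8% without PE, and lowered 28.1% and raised 29.2% with PE. The part of these cell types in the proteasome values was not tested. In bulk RNA, fewer cells of a type and less RNA per cell cannot be told apart.

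Slc39a2 knockdown raised most constitutive proteasome genes. In siSlc39a2 against siNeg, 24 of the 34 members were higher and none was lower at an edgeR adjusted p below 0.05, while 22.8% of all genes tested were called higher and 26.4% lower. DESeq2 called 25 members higher and 0 lower. At an unadjusted p below 0.05 edgeR gave 25 members higher and 1 lower, beside 3649 and 4104 of all 13967 genes tested. The median log2 fold change was 0.36 over the members and -0.02 over all genes tested. The changes were small. Psmd7 was the only member past a log2 fold change of 1, a line that 4.57% of all genes crossed upward. All 7 alpha ring genes rose, as did 6 of 8 lid genes, 5 of 6 ATPases and 2 of 3 base scaffold and receptor genes, whereas 2 of 7 beta ring genes did. The counts depended on the scaling, with 31 members higher on library totals without TMM and 30 with each of 3 limma settings on log2 FPKM values, Psmb3, Psmb6 and Psmb7 of the beta ring among them. The share of all genes called under these settings was not counted. By median log2 fold change the alpha ring stood at 0.56 and the beta ring at 0.15.

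**Figure D1:**
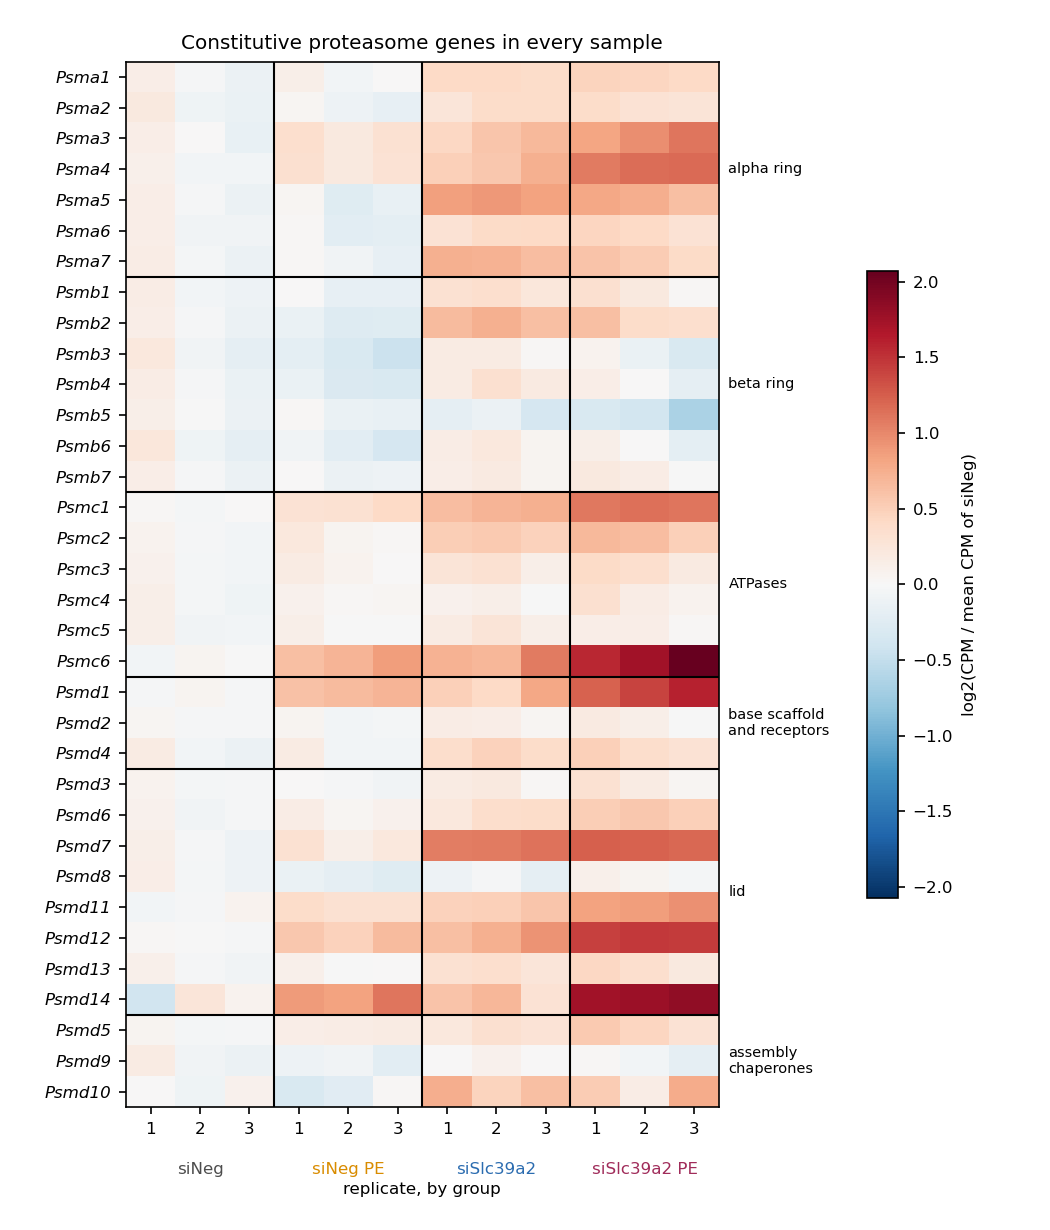
Each cell is the log2 ratio of a gene's CPM (counts scaled to the TMM-adjusted library size) in a sample to its mean CPM in siNeg, with 34 genes as rows by sub-complex and 12 samples as columns. The siSlc39a2 columns are red for the 7 alpha ring genes and for Psmd7, while the Psmb5 row turns blue in siSlc39a2 PE.

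Largely the same genes moved when the knockdown was made under PE, a comparison that shares no sample with the first. In siSlc39a2 PE against siNeg PE, 26 members were higher and 1 was lower, beside 29.2% and 28.1% of all genes tested. The median log2 fold change was 0.40, against 0.01 over all genes. Of the 34 members, 33 had the same sign in both comparisons, and 23 were called higher in both. The same counts were not made over all genes tested, so they do not set the members apart. Across the members the 2 sets of log2 fold changes had a Pearson r of 0.934 and a Spearman rho of 0.945, beside 0.832 and 0.82 across all genes tested. These are descriptions across genes, which are not independent replicates. All 7 alpha ring and all 8 lid genes were higher under PE, with 4 of 6 ATPases and 3 of 7 beta ring genes. Psmc6 alone passed a log2 fold change of 1 here, as 6.03% of all genes did. The single lower gene was Psmb5.

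**Figure D2:**
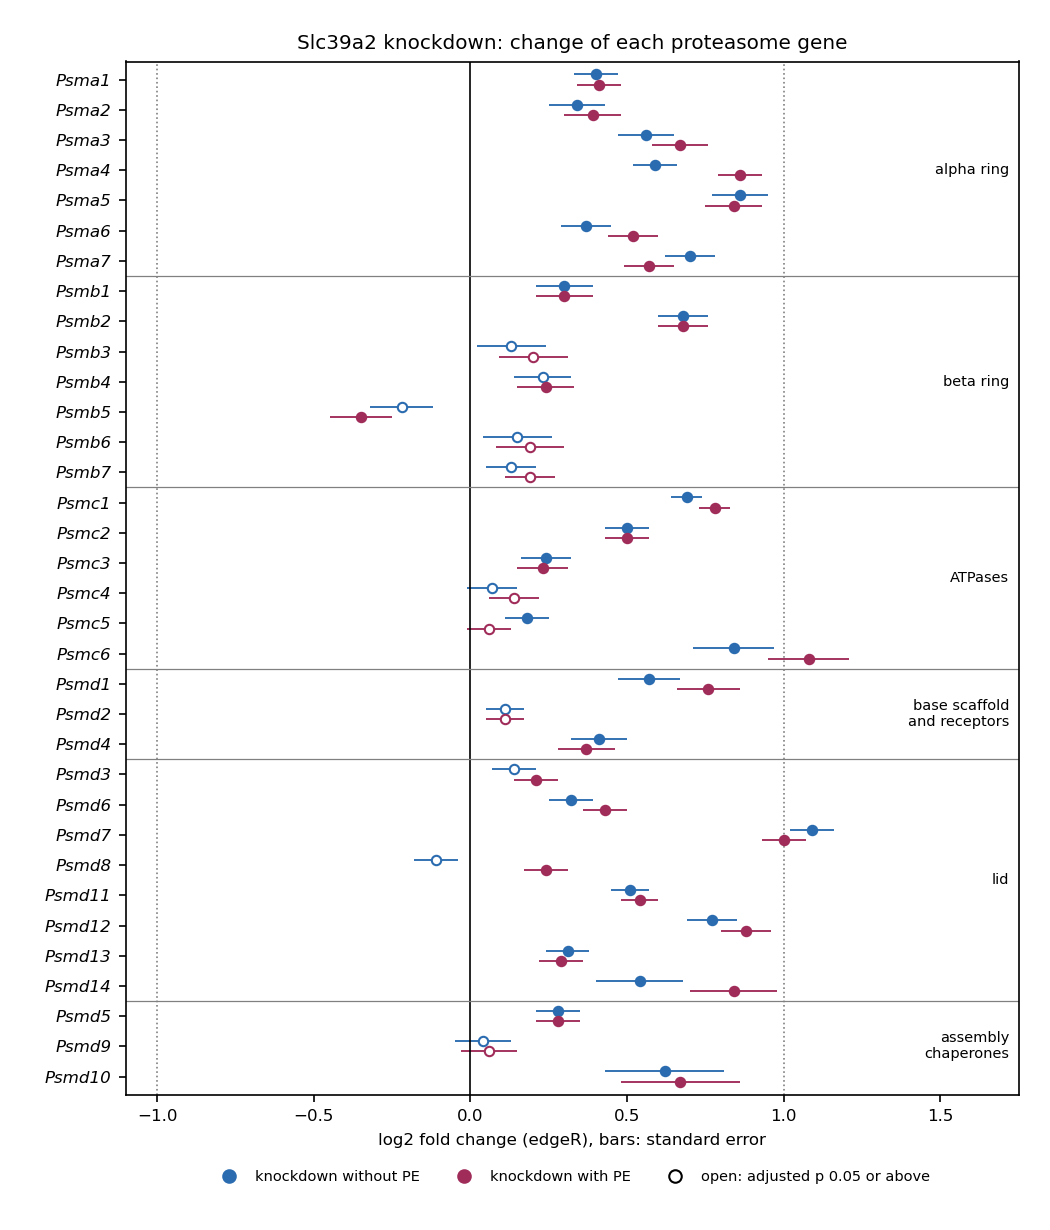
Points are edgeR log2 fold changes of each gene (x axis) with their standard errors, for siSlc39a2 against siNeg (blue) and siSlc39a2 PE against siNeg PE (purple). Filled points have an adjusted p below 0.05, and dotted lines mark a log2 fold change of 1 in either direction. The alpha ring lies between 0.34 and 0.86 in the blue series, and Psmb5 lies to the left of 0 in both.

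In the alpha ring, which gates the core, the largest rise after knockdown without PE was that of Psma5 (NCBI gene 29672). With PE it was that of Psma4, at 0.86 on the log2 scale (standard error 0.07, edgeR adjusted p = 8.7e-07), which rose by 0.59 without PE. Psma5 had 91.2, 81 and 75.8 CPM in the siNeg samples, 85, 69.6 and 74.6 in siNeg PE, 149, 154 and 147 in siSlc39a2 and 144, 140 and 127 in siSlc39a2 PE. Every knockdown sample was above every siNeg or siNeg PE sample. The log2 fold change was 0.86 (standard error 0.09, edgeR adjusted p = 4.01e-06) without PE and 0.84 (standard error 0.09, adjusted p = 4.66e-06) with PE. Psma2, at the other end of the ring, had 144, 118 and 113 CPM in siNeg, 128, 116 and 111 in siNeg PE, 149, 163 and 163 in siSlc39a2, and 163, 153 and 150 in siSlc39a2 PE. Its knockdown samples again lay above the others, by 0.34 on the log2 scale (standard error 0.09, edgeR adjusted p = 0.0072) without PE and 0.39 with PE. Psma6 went from 141, 123 and 122 CPM in siNeg to 158, 169 and 172 in siSlc39a2, and from 131, 111 and 112 in siNeg PE to 175, 172 and 159 in siSlc39a2 PE. These groups did not overlap either, and the log2 fold changes were 0.37 (edgeR adjusted p = 0.00203) and 0.52 (adjusted p = 0.000153). Psma3 differed in every group. It had 99.3, 90.4 and 81.2 CPM in siNeg, 115, 104 and 113 in siNeg PE, 121, 134 and 144 in siSlc39a2 and 159, 177 and 194 in siSlc39a2 PE. No value of one group fell within the range of another, and the knockdown raised Psma3 by 0.56 (edgeR adjusted p = 0.000321) without PE and 0.67 (adjusted p = 6.4e-05) with PE on the log2 scale.

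The beta ring, which carries the proteolytic sites, was uneven. Psmb2, a non-catalytic subunit, had 130, 116 and 109 CPM in siNeg, 107, 97.9 and 99 in siNeg PE, 186, 197 and 183 in siSlc39a2 and 182, 154 and 150 in siSlc39a2 PE. Its knockdown samples were all above the siNeg and siNeg PE samples, and the log2 fold change was 0.68 both without PE (standard error 0.08, edgeR adjusted p = 2.86e-05) and with PE (standard error 0.08, adjusted p = 2.56e-05). Psmb3, also non-catalytic, had 175, 143 and 132 CPM in siNeg, 131, 121 and 110 in siNeg PE, 169, 169 and 153 in siSlc39a2 and 158, 136 and 121 in siSlc39a2 PE. Here the siSlc39a2 samples lay within the siNeg range, and neither knockdown comparison passed the test (0.13 and 0.20 on the log2 scale). Without PE it passed in 4 of 15 alternative settings, on library totals (0.27) and with the 3 limma settings (0.23 each), and with PE it passed in 2 of 15.

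The 3 constitutive catalytic genes did not rise with the rest under TMM scaling. Psmb5 (NCBI gene 29425), which carries the chymotrypsin-like activity, had 211, 191 and 177 CPM in siNeg, 197, 176 and 173 in siNeg PE, 170, 177 and 152 in siSlc39a2 and 155, 149 and 123 in siSlc39a2 PE. With PE, every knockdown sample was below every siNeg PE sample, and Psmb5 fell by 0.35 on the log2 scale (standard error 0.10, edgeR adjusted p = 0.00755). Without PE its log2 fold change was -0.22 (standard error 0.10, edgeR adjusted p = 0.0819), which did not pass. Psmb6, the caspase-like subunit, had 198, 158 and 147 CPM in siNeg, 160, 144 and 132 in siNeg PE, 187, 195 and 175 in siSlc39a2 and 183, 169 and 146 in siSlc39a2 PE. Psmb7, the trypsin-like subunit, had 241, 215 and 203 CPM in siNeg, 221, 202 and 205 in siNeg PE, 243, 251 and 229 in siSlc39a2 and 252, 244 and 218 in siSlc39a2 PE. Both genes overlapped between knockdown and control samples, with log2 fold changes of 0.15 (edgeR adjusted p = 0.299) and 0.13 (adjusted p = 0.167) without PE and 0.19 for each with PE. These calls depended on the scaling and on single samples. On library totals without TMM, which shifted the median of all genes from -0.02 to 0.13 in this comparison, Psmb6 was at 0.29 and Psmb7 at 0.28, and both passed. With each limma setting they were at 0.25 and 0.24 and passed as well. Without siNeg replicate 1, Psmb6 was at 0.28 and Psmb7 at 0.21, and both passed too. In all, Psmb6 was called higher in 5 and Psmb7 in 6 of 15 alternatives. Under PE, Psmb7 was called higher in 7 of 15, among them library totals (0.20), the limma settings (0.21 each) and the fits without siNeg PE replicate 1 (0.23) or siSlc39a2 PE replicate 3 (0.25), and Psmb6 in 1 of 15.

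Among the ATPases, Psmc6 (NCBI gene 289990) rose most. Psmc6 had 26.4, 28.5 and 27.1 CPM in siNeg, 41.9, 44.3 and 50.1 in siNeg PE, 45.1, 44.2 and 57.9 in siSlc39a2 and 80.5, 91.6 and 115 in siSlc39a2 PE. The siSlc39a2 PE samples stood apart above all others, and the knockdown effect was 0.84 (standard error 0.13, edgeR adjusted p = 0.000229) without PE and 1.08 (standard error 0.13, adjusted p = 2.35e-05) with PE on the log2 scale. Psmc4 had 159, 143 and 137 CPM in siNeg, 155, 149 and 151 in siNeg PE, 156, 160 and 145 in siSlc39a2 and 184, 162 and 154 in siSlc39a2 PE. Its groups overlapped, and it passed in neither comparison (0.07 and 0.14 on the log2 scale), although on library totals it passed without PE (0.22). Psmc5 had 149, 130 and 131 CPM in siNeg, 149, 136 and 136 in siNeg PE, 153, 165 and 149 in siSlc39a2 and 150, 150 and 139 in siSlc39a2 PE. It was called higher without PE at 0.18 (edgeR adjusted p = 0.0472) although the samples overlapped. That call was lost without siNeg replicate 2 (0.15), siNeg replicate 3 (0.15), siSlc39a2 replicate 1 (0.20) or siSlc39a2 replicate 2 (0.14), and with PE Psmc5 was at 0.06. The others, Psmc1, Psmc2 and Psmc3, rose by 0.69, 0.50 and 0.24 without PE. Expected counts of Psmc1 and Psmc5 were not whole numbers in any of the 12 samples, and those of Psmc6 were not whole in 7, which happens when reads are shared with another gene, so their values are uncertain.

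Psmd1 (NCBI gene 83806) and Psmd2 are the large scaffolds of the base, and Psmd4 is a ubiquitin receptor. Psmd1 had 113, 120 and 113 CPM in siNeg, 176, 181 and 188 in siNeg PE, 163, 153 and 200 in siSlc39a2 and 269, 304 and 350 in siSlc39a2 PE. All 9 treated samples lay above the siNeg samples, and the knockdown raised Psmd1 by 0.57 (standard error 0.10, edgeR adjusted p = 0.000605) without PE and 0.76 (standard error 0.10, adjusted p = 5.61e-05) with PE on the log2 scale. Psmd2, which docks ubiquitin shuttle proteins, had 420, 400 and 401 CPM in siNeg, 422, 392 and 396 in siNeg PE, 454, 450 and 418 in siSlc39a2 and 464, 441 and 404 in siSlc39a2 PE. These ranges overlapped, and Psmd2 passed in neither knockdown comparison (0.11 in each). Without PE it passed in 5 of 15 alternatives, on library totals (0.26), with the 3 limma settings (0.21 each) and without siSlc39a2 replicate 3 (0.20), and with PE it passed in 2 of 15. Psmd4 had 165, 142 and 135 CPM in siNeg, 166, 141 and 141 in siNeg PE, 190, 206 and 192 in siSlc39a2 and 207, 190 and 182 in siSlc39a2 PE. Its knockdown samples lay above the siNeg and siNeg PE samples, by 0.41 (edgeR adjusted p = 0.00201) and 0.37 (adjusted p = 0.00305) on the log2 scale.

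The lid held the member with the largest knockdown effect without PE. Psmd7 (NCBI gene 307821), the partner of the deubiquitinase Psmd14, had 93, 84.9 and 79.9 CPM in siNeg, 107, 93.5 and 100 in siNeg PE, 179, 182 and 187 in siSlc39a2 and 202, 201 and 197 in siSlc39a2 PE. It averaged 183 ± 3.79 CPM in siSlc39a2 and 86 ± 6.62 in siNeg (SD, n = 3 each), which is 2.12-fold higher, or 1.09 on the log2 scale (standard error 0.07, edgeR adjusted p = 3.89e-08). With PE the log2 fold change was 1.00 (standard error 0.07, adjusted p = 9.01e-08). Psmd14 (NCBI gene 311078), the deubiquitinase, had 14, 21.9 and 19.4 CPM in siNeg, 33.9, 32.8 and 39.7 in siNeg PE, 27.7, 29.6 and 22.8 in siSlc39a2 and 61.7, 63.2 and 66.1 in siSlc39a2 PE. The 4 groups did not overlap, and the knockdown effect was 0.54 (standard error 0.14, edgeR adjusted p = 0.0083) without PE and 0.84 (standard error 0.14, adjusted p = 0.000242) with PE. Psmd11, which bridges the lid and the core, had 89, 91.1 and 96.9 CPM in siNeg, 120, 115 and 115 in siNeg PE, 128, 130 and 137 in siSlc39a2 and 164, 168 and 178 in siSlc39a2 PE. It too had 4 ranges without overlap, and rose by 0.51 (edgeR adjusted p = 1.27e-05) and 0.54 (adjusted p = 6.51e-06) after knockdown.

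Psmd8 was the only lid gene with a log2 fold change below 0 after knockdown without PE. Psmd8 had 234, 206 and 197 CPM in siNeg, 194, 186 and 179 in siNeg PE, 197, 208 and 186 in siSlc39a2 and 229, 222 and 207 in siSlc39a2 PE. Without PE the siSlc39a2 samples overlapped the siNeg samples (-0.11 on the log2 scale, edgeR adjusted p = 0.238). With PE the siSlc39a2 PE samples were all above the siNeg PE samples (0.24, adjusted p = 0.0148), a call lost without siNeg PE replicate 3 or siSlc39a2 PE replicate 1 (0.20 in each case). Of the remaining lid genes, Psmd12, Psmd6 and Psmd13 rose without PE by 0.77, 0.32 and 0.31 on the log2 scale. Expected counts of Psmd12 were not whole in 7 samples. Psmd3 was called higher with PE (0.21, edgeR adjusted p = 0.0294) and was not called without it. The difference between the 2 knockdown effects was not called for Psmd3, nor was it for Psmd8.

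Among the assembly chaperones of the base, Psmd10 had the lowest level. Psmd5 had 56.9, 53.5 and 54.1 CPM in siNeg, 60, 61 and 61.7 in siNeg PE, 63.9, 69.1 and 66.5 in siSlc39a2 and 80.1, 74.8 and 67.3 in siSlc39a2 PE. Knockdown samples lay above their controls, by 0.28 on the log2 scale both without PE (edgeR adjusted p = 0.00545) and with PE (adjusted p = 0.00399). Psmd10, known as gankyrin, had 1.74, 1.63 and 1.85 CPM in siNeg, 1.4, 1.48 and 1.76 in siNeg PE, 2.94, 2.4 and 2.69 in siSlc39a2 and 2.5, 1.93 and 2.98 in siSlc39a2 PE, from 44, 43 and 47 counts in the siNeg samples. It rose by 0.62 (standard error 0.19, edgeR adjusted p = 0.0165) and 0.67 (standard error 0.19, adjusted p = 0.00937). The first call was lost without siNeg replicate 2 (0.57) or siSlc39a2 replicate 1 (0.55), and the second without siSlc39a2 PE replicate 3 (0.52). Psmd9 had 54.1, 45.8 and 43.9 CPM in siNeg, 44.7, 45.4 and 41.3 in siNeg PE, 48.1, 51.1 and 48.3 in siSlc39a2 and 49, 46.1 and 41.9 in siSlc39a2 PE. Psmd9 overlapped between the groups and passed in neither comparison (0.04 and 0.06), and its counts were not whole in 10 samples.

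Promoter sequence was available for 30 of the 34 members in the RefSeq table of build GRCr8, as 250 bases before to 50 bases after each gene's start. Psma7, Psmd6, Psmd12 and Psmd14 were not matched. Sequences are shown for Psmd7, which had the largest knockdown effect without PE, for Psma3, which differed in all 4 groups, for Psmb5, which went the other way, and for the immunoproteasome gene Psmb8. The motifs and these 4 genes were chosen with their values known. The motifs searched on both strands were TGACNNNGC, the core of the antioxidant response element to which NFE2L1 is known to bind, AANNGAAA, the core to which interferon regulatory factors are known to bind, and CCAAT. Matches to different motifs may overlap. The capitals mark matches to AANNGAAA in Psmd7 and Psmb8 and to TGACNNNGC in Psma3 and Psmb5, on either strand. The windows are chr19:52411267-52411566 on the minus strand for Psmd7, chr6:95219499-95219798 on the plus strand for Psma3, chr15:32047330-32047629 on the minus strand for Psmb5 and chr20:4656982-4657281 on the minus strand for Psmb8.
Psmd7: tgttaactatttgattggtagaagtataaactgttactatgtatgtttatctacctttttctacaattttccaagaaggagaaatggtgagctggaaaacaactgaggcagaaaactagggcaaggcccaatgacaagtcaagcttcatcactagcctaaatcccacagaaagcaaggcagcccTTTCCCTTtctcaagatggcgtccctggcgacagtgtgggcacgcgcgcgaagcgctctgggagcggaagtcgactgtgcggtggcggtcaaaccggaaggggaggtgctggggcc
Psma3: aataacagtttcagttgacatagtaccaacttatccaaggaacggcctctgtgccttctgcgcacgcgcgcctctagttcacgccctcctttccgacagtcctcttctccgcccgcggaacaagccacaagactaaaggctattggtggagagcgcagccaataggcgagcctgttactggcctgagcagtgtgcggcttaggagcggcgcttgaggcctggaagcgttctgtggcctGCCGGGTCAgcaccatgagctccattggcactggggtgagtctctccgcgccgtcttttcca
Psmb5: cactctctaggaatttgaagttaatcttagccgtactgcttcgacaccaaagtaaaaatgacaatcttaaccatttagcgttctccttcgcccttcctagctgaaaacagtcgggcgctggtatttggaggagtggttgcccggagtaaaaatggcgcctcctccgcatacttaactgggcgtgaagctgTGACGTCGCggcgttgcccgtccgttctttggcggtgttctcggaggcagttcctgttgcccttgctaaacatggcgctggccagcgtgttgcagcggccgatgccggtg
Psmb8: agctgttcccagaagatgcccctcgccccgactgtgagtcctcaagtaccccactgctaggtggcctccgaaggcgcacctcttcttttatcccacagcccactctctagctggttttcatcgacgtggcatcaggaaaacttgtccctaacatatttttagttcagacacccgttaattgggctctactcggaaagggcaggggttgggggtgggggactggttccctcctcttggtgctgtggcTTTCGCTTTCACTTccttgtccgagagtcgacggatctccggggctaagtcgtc

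A TGACNNNGC match was in the windows of 7 members (Psma3, Psmb2, Psmb5, Psmb6, Psmd1, Psmd3 and Psmd9), 23.3% of those matched, and in 12.1% of all 33469 promoter windows. AANNGAAA was in those of 11 members, Psmd7 among them, which is 36.7% of the members matched beside 26.4% of all windows, and in those of Psmb8 and Psmb10 but not of Psmb9. CCAAT was in 53.3% of the members' windows and 37.5% of all. Of the 7 members with the first motif, Psma3, Psmb2, Psmd1 and Psmd3 were called higher in siSlc39a2 PE against siNeg PE. Psmb5 was called lower there, and Psmb6 and Psmd9 were not called. Of the 11 with the second, Psmb3, Psmb6 and Psmd9 were not called there and the others were called higher. Of all genes tested, 29.2% were called higher in this comparison and 28.1% lower. A match describes letters in a window and is neither a bound site nor a cause.

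PE alone changed fewer members than the knockdown, and under TMM scaling in both directions. In siNeg PE against siNeg, 9 members were higher and 4 lower, beside 24% and 25.7% of all genes tested, so that the shares were near or below those of all genes. The median log2 fold change was 0.02 over the members and -0.01 over all genes. The 9 higher genes were Psma3 and Psma4 of the alpha ring, the ATPases Psmc1 and Psmc6, the scaffold Psmd1 and the lid genes Psmd7, Psmd11, Psmd12 and Psmd14. The lower genes were Psmb2, Psmb3, Psmb4 and Psmd8. No member passed a log2 fold change of 1, which 3.8% of all genes passed upward. The lower calls and the number of higher ones depended on the values used. On library totals without TMM the split was 12 higher and 0 lower. With limma on log2(FPKM + 1), log2(FPKM + 0.1) and log2(FPKM + 1) without a filter, 19, 16 and 19 members were higher and 0 lower. The median of the members was 0.14 each time. The median of all genes was 0.06 on library totals and -0.01, -0.01 and 0.000 with the limma settings. The share of all genes called under these settings was not counted.

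After knockdown, PE again raised 9 members and lowered 3, beside 30.7% and 29.3% of all genes tested. The higher genes of siSlc39a2 PE against siSlc39a2 were those named above with Psmd6 in place of Psmd7, and the lower ones were Psma7, Psmb2 and Psmb4. This comparison shares no sample with siNeg PE against siNeg. Of the 34 members, 29 had the same sign in both, with 8 called higher and 2 called lower in both. Here too the counts were not made over all genes tested and do not set the members apart. The log2 fold changes had a Pearson r of 0.96 and a Spearman rho of 0.886 across members and 0.702 and 0.81 across all genes tested, given as a description. Psmd14 was past a log2 fold change of 1, as were 6.34% of all genes. On library totals the split here was 8 higher and 6 lower. The same 3 limma settings called 15, 14 and 16 members higher and 0 lower, with a median of 0.08 each time. The median of all genes was -0.05 on library totals and -0.02, -0.03 and 0.000 with the limma settings, and their share of calls was not counted.

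**Figure D3:**
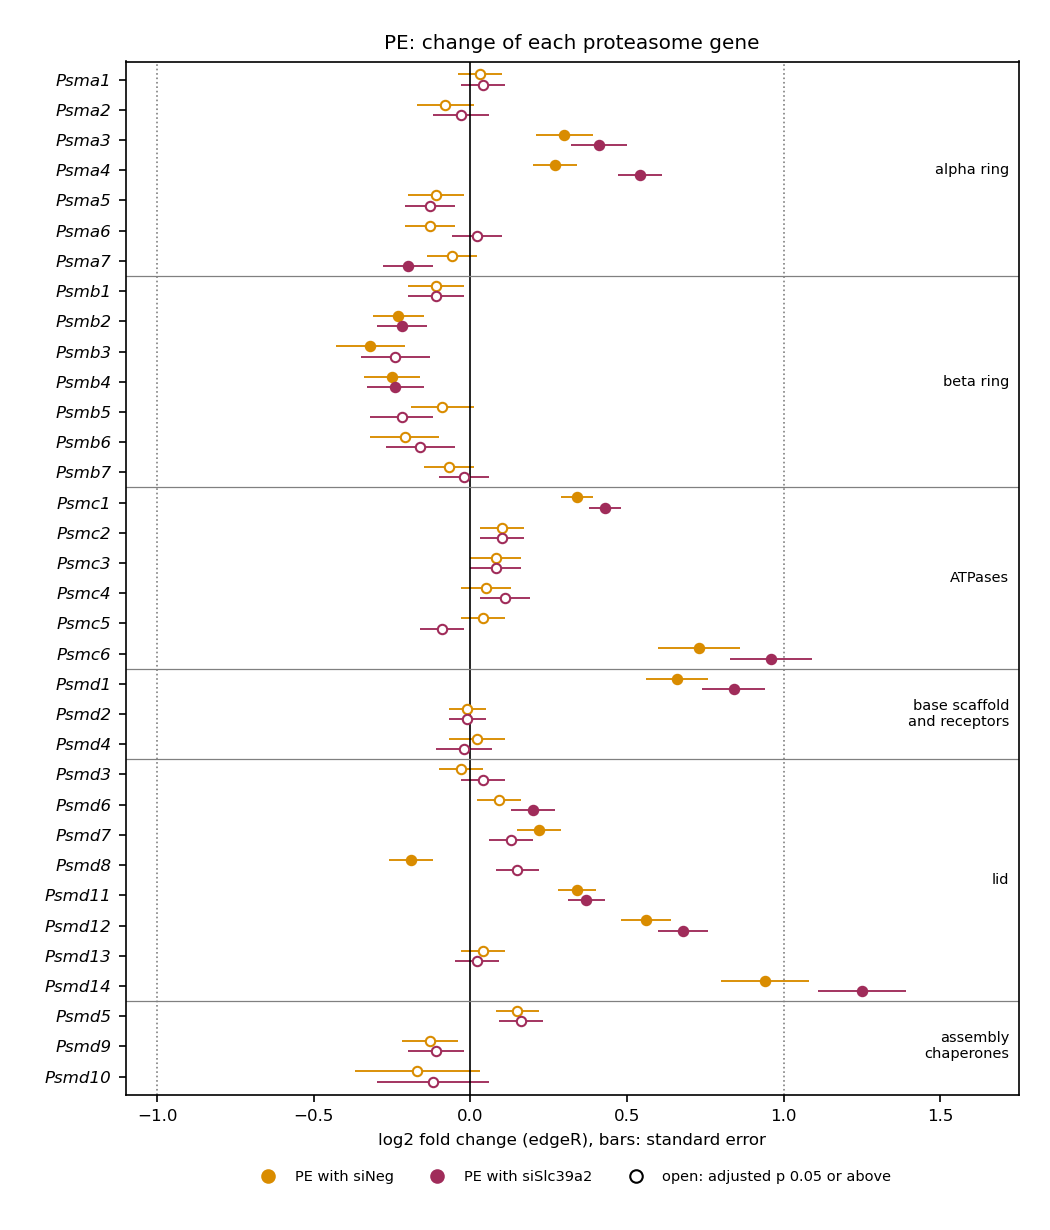
Points are edgeR log2 fold changes of each gene (x axis) with their standard errors, for siNeg PE against siNeg (orange) and siSlc39a2 PE against siSlc39a2 (purple). Filled points have an adjusted p below 0.05. Psmc6, Psmd1, Psmd12 and Psmd14 lie farthest to the right in both series, and the 7 beta ring genes all lie left of 0.

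The genes that PE raised most were in the regulatory particle. Psmd14 averaged 35.4 ± 3.72 CPM in siNeg PE and 18.4 ± 4.07 in siNeg (SD, n = 3 each), which is 0.94 higher on the log2 scale (standard error 0.14, edgeR adjusted p = 0.000255), and after knockdown PE raised it by 1.25 (standard error 0.14, adjusted p = 1.46e-05). Psmc6 rose by 0.73 (standard error 0.13, edgeR adjusted p = 0.000897) with siNeg and 0.96 (standard error 0.13, adjusted p = 6.36e-05) with siSlc39a2. For Psmd1 the log2 fold changes were 0.66 (edgeR adjusted p = 0.000327) and 0.84 (adjusted p = 2.97e-05), and for Psmd11 they were 0.34 (adjusted p = 0.000578) and 0.37 (adjusted p = 0.000179). In each of these 4 genes every PE sample was above every sample without PE of the same siRNA. Psma3 rose by 0.30 (edgeR adjusted p = 0.0192) and 0.41 (adjusted p = 0.00229). With siNeg its call was lost without siNeg replicate 3 (0.23), siNeg PE replicate 1 (0.27) or siNeg PE replicate 3 (0.28). Psmd7 rose by 0.22 with siNeg (edgeR adjusted p = 0.016), a call lost without siNeg replicate 3 or siNeg PE replicate 1 (0.17 in each case).

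The lower calls under PE were less stable. Psmb2 fell by 0.23 on the log2 scale (edgeR adjusted p = 0.0411), Psmb3 by 0.32 (adjusted p = 0.0343) and Psmd8 by 0.19 (adjusted p = 0.0465) in siNeg PE against siNeg. No lower call was left without siNeg replicate 1, siNeg PE replicate 2 or siNeg PE replicate 3, and 1 was left without siNeg replicate 2. With limma no lower call was left in either PE comparison. In siSlc39a2 PE against siSlc39a2, 0 lower calls were left without siSlc39a2 replicate 1 or 2 or siSlc39a2 PE replicate 2 or 3, and there were 5 without siSlc39a2 replicate 3 or siSlc39a2 PE replicate 1. Under TMM scaling with all samples the catalytic genes passed in neither PE comparison, with log2 fold changes of -0.09 and -0.22 for Psmb5, -0.21 and -0.16 for Psmb6 and -0.07 and -0.02 for Psmb7. After knockdown, Psmb5 was called lower under PE in 6 of 15 alternatives, among them DESeq2 (-0.24), RLE size factors (-0.24), library totals (-0.28) and the fits without siSlc39a2 replicate 3 (-0.32) or siSlc39a2 PE replicate 1 (-0.31). With siNeg its sign turned with each limma setting (0.08).

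The PE effects moved with transcript length. The length that counts and FPKM imply together was between 0.438 kb for Psmd10 and 2.98 kb for Psmd1 and Psmd11, and it was 0.72 kb for Psmb3. Across the 34 members, the Spearman rho between this length and the log2 fold change was 0.679 in siNeg PE against siNeg and 0.719 in siSlc39a2 PE against siSlc39a2, beside 0.252 and 0.243 across all 13967 genes. For the knockdown it was 0.0567 without PE and 0.125 with PE. Members of low level also rose more, with a rho against mean FPKM over the 12 samples of -0.598 and -0.634 for PE, beside -0.149 and -0.148 across all genes. For the knockdown this rho was -0.359 and -0.419, beside -0.037 and -0.0553. FPKM is itself scaled by length, so the correlations with level and with length are not separate patterns. All are descriptions across genes that share libraries, and the part of length or level in the PE and knockdown values was not tested.

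The knockdown effect with PE less that without PE was not called for any member, while 3.61% of all genes were called in either direction. At an unadjusted p below 0.05, edgeR gave 2 members higher and 0 lower, beside 1159 and 1076 of all 13967 genes tested. DESeq2 gave the same counts of members. The log2 differences were between -0.14 and 0.34. The highest was that of Psmd8 (0.34, standard error 0.10, edgeR adjusted p = 0.0967), which passed in 2 of 20 alternatives, one of them limma on log2(FPKM + 1) without a filter on low values (0.26). A difference that misses the threshold does not show that the 2 knockdown effects were equal.

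FPKM values allow levels to be compared between genes per length. In siNeg, Psmb1 was the highest member at 278 ± 20.3 FPKM, followed by Psmb5 (240 ± 15.2), Psmb6 (239 ± 31.9) and Psmb7 (235 ± 15), which did not differ from each other beyond their spread. The lowest were Psmd14 (12.3 ± 2.92), Psmc6 (11.1 ± 0.51) and Psmd10 (3.75 ± 0.327; SD, n = 3 each). The ATPase ring is built of 1 copy of each of its 6 subunits. In RNA, Psmc3 stood at 162 ± 5.53 FPKM and Psmc6 at 11.1 ± 0.51. Subunit protein was not measured here, and expected counts of Psmc6 were not whole in 7 samples.

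Per subunit gene, the core particle averaged 174 ± 13.8 FPKM in siNeg and 241 ± 4.09 in siSlc39a2 without PE, and 171 ± 8.88 and 221 ± 13.4 with PE. The 17 regulatory particle genes averaged 81.3 ± 2.46, 113 ± 1.6, 92.4 ± 1.93 and 124 ± 3.45 FPKM in the same order (SD, n = 3 each). These FPKM values are not scaled by TMM, whose factors were 0.927 to 0.96 in siNeg and 1.04 to 1.07 in siSlc39a2. They therefore put siSlc39a2 higher against siNeg than TMM-scaled counts do. The factors were 0.98 to 1.01 in siNeg PE and 1 to 1.01 in siSlc39a2 PE. The ratio of regulatory to core FPKM was 0.444, 0.472 and 0.489 in siNeg. In siSlc39a2 it was 0.467, 0.465 and 0.47, within the siNeg range. Under PE the ratio was 0.523, 0.544 and 0.556 with siNeg and 0.542, 0.561 and 0.581 with siSlc39a2, so that every PE sample was above every sample without PE. The ratio of beta ring to alpha ring FPKM was 1.81 ± 0.0273 with siNeg, 1.62 ± 0.0292 with siNeg and PE, 1.43 ± 0.0747 with siSlc39a2 and 1.25 ± 0.0937 with both siSlc39a2 and PE (SD, n = 3 each), and the ranges of the 4 groups did not overlap. Ratios within a sample do not depend on library scaling, but they rest on the genes of highest FPKM, and no test was made of them. Implied lengths ran from 0.664 to 1.64 kb in the core and from 1.21 to 2.98 kb in the regulatory particle. As the PE effects moved with length, particle and length cannot be told apart in the ratio of regulatory to core.

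**Figure D4:**
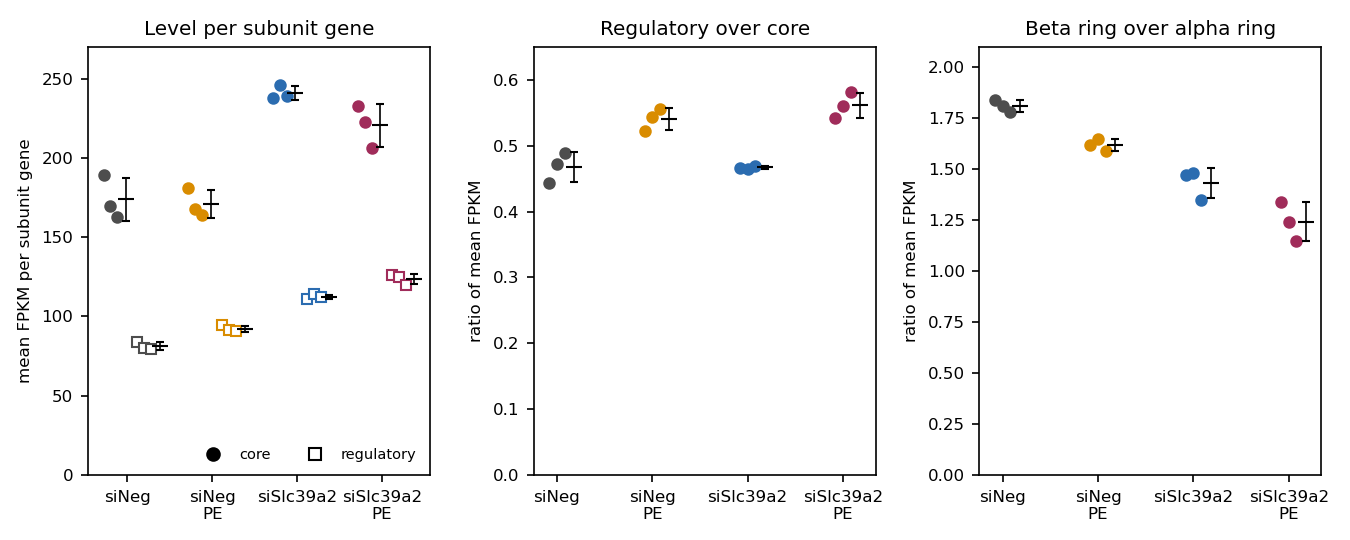
From left to right, the panels plot mean FPKM per subunit gene of the core (circles) and regulatory particle (squares), the ratio of regulatory to core, and the ratio of beta ring to alpha ring, each by group. Points are the 3 samples, and the bars are the mean and SD. The middle panel separates the 6 PE samples, from 0.523 up, from the 6 without PE, up to 0.489.

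The proteasome genes outside the constitutive set that moved furthest were the immunoproteasome subunits, which replace Psmb6, Psmb7 and Psmb5 in cells that answer interferon. Psmb8 had 5.92, 5.46 and 4.37 CPM in siNeg and 323, 332 and 280 in siSlc39a2, and rose by 5.89 on the log2 scale (standard error 0.13, edgeR adjusted p = 1.68e-12). Psmb9 rose by 5.06 and Psmb10 by 3.97 on the log2 scale. Set against them, the sum of Psmb5, Psmb6 and Psmb7 was 715 ± 61.6 FPKM in siNeg and 803 ± 33.9 in siSlc39a2. FPKM is not scaled by TMM. With TMM these genes were at -0.22, 0.15 and 0.13 on the log2 scale, and none was called. The immunoproteasome genes summed to 23.8 ± 2.27 FPKM in siNeg and 801 ± 66.1 in siSlc39a2, and under PE to 21 ± 1.91 and 511 ± 55.8. Their share of all catalytic FPKM was thus 3.22% ± 0.0683 in siNeg and 49.9% ± 1.09 in siSlc39a2, and 2.92% ± 0.103 in siNeg PE and 41.7% ± 0.53 in siSlc39a2 PE (SD, n = 3 each). Expected counts of Psmb8 were not whole in the 6 knockdown samples, nor those of Psmb10 in any of the 12 samples, so these values are uncertain too.

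**Figure D5:**
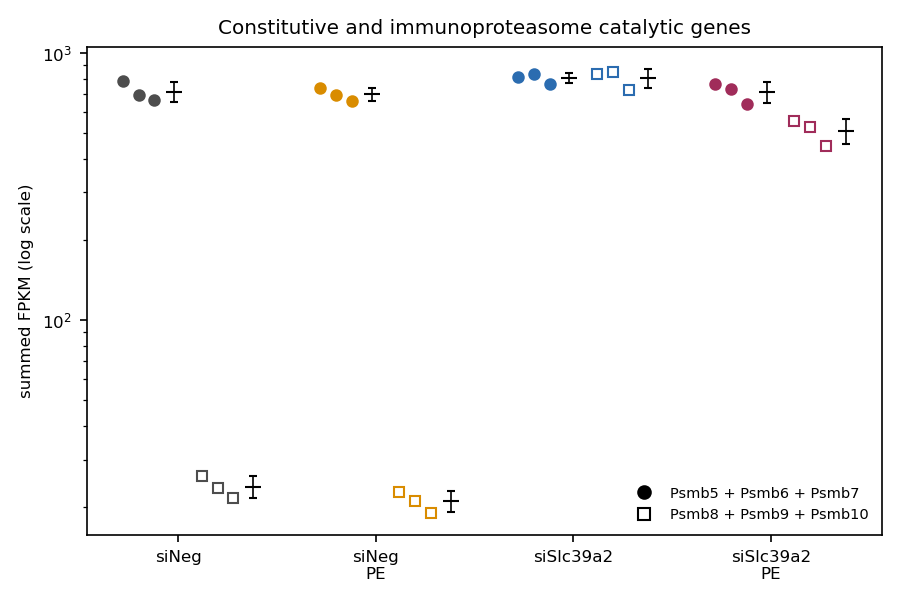
The summed FPKM of the constitutive catalytic genes (circles) and of the immunoproteasome catalytic genes (squares) is plotted by group on a log axis, with the 3 samples as points and the mean and SD as bars. The squares rise from 23.8 in siNeg to 801 in siSlc39a2 while the circles go from 715 to 803. The FPKM values are not scaled by TMM.

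Of the other genes of the pathway, 30 of 36 listed were tested, and 18 were higher and 3 lower in siSlc39a2 against siNeg, beside 22.8% and 26.4% of all genes tested. Activators and the inhibitor of the core rose as well, by 0.91 for Psme1 and 2.21 for Psme2 on the log2 scale, which form the PA28 cap induced by interferon, and by 0.93 for Psme4, while Psmf1, the inhibitor, was 2.83-fold higher. Expected counts of Psme2 were not whole in any of the 12 samples. Of 5 chaperones of core assembly, 1 was higher and none was lower. Among the subunits and deubiquitinases bound to the regulatory particle, 3 of 4 tested were higher, namely Adrm1 (0.21), Uchl5 (0.51) and Usp14 (0.50). Of 5 genes of the NFE2L1 pathway, 2 were higher and 1 lower. Nfe2l1 itself rose by 0.64 (standard error 0.06, edgeR adjusted p = 1.56e-06) without PE and 0.34 (adjusted p = 0.000283) with PE, and Ngly1, which processes its protein, rose by 0.47 without PE, while Syvn1, which marks it for degradation, fell by 0.41 on the log2 scale. Ddi2, the protease that cleaves the NFE2L1 protein, was at 0.08 (edgeR adjusted p = 0.351) and Vcp, which extracts it from the membrane, at -0.01 (adjusted p = 0.834), and neither passed. Of 5 shuttle factors, Rad23b (0.29), Ubqln1 (0.26) and Ubqln2 (0.25) rose and Ubqln4 fell by 0.21. Under PE with siNeg 8 of these 30 pathway genes were higher and 11 lower, beside 24% and 25.7% of all genes tested, so that the higher share was near that of all genes. Uchl5 (0.95) and Usp14 (0.66) were among the higher and 3 of 5 core assembly chaperones, Psmg1 (-0.34), Psmg3 (-0.41) and Psmg4 (-0.43), among the lower.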

How the data were processed

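RNA of NRVMs in 4 groups of 3 replicates was sequenced. Per gene, the authors deposited unnormalized expected counts and FPKM values for 18483 genes. The submitters' processing notes name HISAT, Bowtie2 and Rnor_6.0, with no roles or versions, and the counting program is not given in the sources used here. Of the deposited counts, 78.7% were whole within 1e-06. Counts that are not whole come from reads shared between genes, and 9 members had them in at least 1 sample.

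Counts were rounded, filtered by filterByExpr, scaled by TMM and fitted for all 12 samples in one model of 4 groups (8 residual degrees of freedom) with edgeR 4.0.16 in R 4.3.3. The quasi-likelihood F-test compared the groups, p-values were adjusted by the Benjamini-Hochberg method over 13967 genes, and genes were called at an adjusted p below 0.05. A log2 fold change above 1, the line used in the study with limma, was counted as well. FPKM values were used for levels per length and were not scaled by TMM. No 2 samples of a group agreed within counting error (chi-square over its degrees of freedom 4.22 to 28.4).

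The members, pathway lists and rule on named genes were chosen with earlier results of these data known. One list of pathway genes is not reported here and was left out of the pathway counts. Values in every sample are given for the highest and lowest member of each sub-complex in the 2 comparisons against siNeg, for Psmb5, Psmb6, Psmb7, Psmd4, Psmd11 and Psmd14, and would be for any member called in the interaction. Alternatives were DESeq2 1.42.0, RLE size factors, library totals, no filter, a replicate block, the groups of a comparison alone, each sample left out, and limma 3.58.1 after quantile normalization of log2(FPKM + 1) or log2(FPKM + 0.1), the first with and without a filter. The labels call the replicates biological without naming separate isolations, so p-values measure the spread between these samples. Depth limits Psmd10 most.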

Additional observations from a re-analysis of the deposited data

How the results depend on the processing

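The knockdown calls kept their direction under every alternative run. Between 20 (without siNeg replicate 2) and 27 members were higher and 0 lower in siSlc39a2 against siNeg when single samples were left out, with a median log2 fold change between 0.32 and 0.41, and between 21 and 27 were higher and 1 lower in siSlc39a2 PE against siNeg PE, with a median between 0.38 and 0.46. The first median was 0.50 on library totals and 0.45 with limma on log2(FPKM + 0.1). The PE calls were less stable. In siNeg PE against siNeg, limma called 19, 16 and 19 members higher and 0 lower (log2(FPKM + 1), log2(FPKM + 0.1) and log2(FPKM + 1) without a filter) with a median of 0.14 each time, library totals and the groups alone called 0 lower, and 1 was lower without a filter. Leaving out single samples gave 7 to 9 higher, 0 to 5 lower and a median between -0.03 and 0.09. In siSlc39a2 PE against siSlc39a2, limma called 15, 14 and 16 higher and 0 lower, library totals gave 6 lower, and leaving out single samples gave 8 to 10 higher, 0 to 5 lower and a median between -0.04 and 0.07. For the interaction, the median was -0.09 on library totals and between -0.06 (without siSlc39a2 PE replicate 1) and 0.08 with single samples left out, and limma without a filter called 1 member higher (Psmd8) and 1 lower (Psma7). Library totals shifted the median of all genes to 0.13 in the first knockdown comparison and to -0.11 in the interaction. The cause of the other changes was not tested. The share of all genes called was not counted under the alternatives, so the member counts given here do not set the members apart.

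Samples that share a replicate number did not deviate together throughout. The correlations of same-numbered deviations were -0.0107, 0.00409 and 0.025 for siSlc39a2 and siNeg and 0.315, 0.0535 and 0.206 for siNeg PE and siNeg. They were 0.32, 0.00387 and 0.122 for siSlc39a2 PE and siNeg PE, and 0.0229, -0.0904 and 0.221 for siSlc39a2 PE and siSlc39a2. Samples of different number ran from -0.249 to 0.0892 for siNeg PE and siNeg, and from -0.226 to 0.118 for siSlc39a2 PE and siNeg PE. The main model did not take the numbers to pair the samples. A replicate structure shared by some of the groups was not tested and may be present. With the replicate block, 27 members were higher and 1 lower (Psmb5) in siSlc39a2 against siNeg, 31 higher and 1 lower in siSlc39a2 PE against siNeg PE, 9 higher and 5 lower in siNeg PE against siNeg, 10 higher and 6 lower in siSlc39a2 PE against siSlc39a2, and 1 higher (Psmd8) in the interaction.

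Signs turned only for values that had not passed the test, among the named members. In siSlc39a2 against siNeg these were Psmd8 (0.04 on library totals) and Psmd9 (-0.02 without siNeg replicate 3). In siNeg PE against siNeg they were Psmb5 (0.08 with each limma setting) and Psmb7 (0.10 with each limma setting, 0.01 on library totals and -0.12 to 0.004 with single samples left out, above 0 without siNeg replicate 1). In siSlc39a2 PE against siSlc39a2 it was Psmb7 (0.07, 0.08 and 0.07 with the limma settings, and -0.08 to 0.04 with single samples left out, at 0.01 without siSlc39a2 replicate 2 and 0.04 without siSlc39a2 PE replicate 3).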
